A study of Drosophila melanogaster with 3 samples.

Results

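The nuclear-encoded subunits of the oxidative phosphorylation machinery were followed in larval hearts of *Drosophila melanogaster* that lack the transcription factor Hand. The set was a fixed list of 56 CG numbers, comprising 23 subunits of complex I, 4 of complex II, 7 of complex III, 9 of complex IV, 12 of complex V and 1 cytochrome c. The list was chosen with earlier results of these data known. A listed number counted as measured when it had a row in the table of array values, whatever its values were. Of the 56 genes, 35 had a row, among 7498 genes in the whole table. All 56 numbers matched a gene of the RefSeq annotation, from which the symbols were taken.

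Oxidative phosphorylation takes place in the inner mitochondrial membrane. Complexes I and II pass electrons from NADH and succinate to ubiquinone, complex III passes them on to cytochrome c, and complex IV hands them to oxygen. Complexes I, III and IV pump protons while doing so, and complex V, the ATP synthase, uses the returning protons to make ATP. Most subunits are encoded in the nucleus, whereas a few core subunits of all complexes except complex II are encoded by mitochondrial DNA and were not part of the list. Heart and other muscles that contract without pause depend on this pathway for ATP.

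Heart tubes of wandering larvae in the third instar were compared between animals homozygous for the null allele *hand173* and animals of the strain w1118, which served as wild type. Both were raised at 22 °C and anesthetized by heat (60 °C, 15 seconds) before dissection, and the labels name no further transgene or agent. About 100 heart tubes per genotype, with pericardial cells and attached muscle fibres, made up 1 RNA pool. On each of 3 spotted arrays, Alexa Fluor 555 marked amplified w1118 RNA and Alexa Fluor 647 amplified mutant RNA, with no dye swap, so that an effect of the dye and one of the genotype cannot be told apart. The sample titles number the arrays with the abbreviation bR, while the methods call them technical replicates. They were taken here as 3 measurements of 1 pair of pools. On the arrays, the difference between the genotypes therefore has no replicate check, and no p-value is given for it. Every SD below is the spread between arrays, to which the p-values further below also refer. The paper re-measured selected genes with biological replicates by quantitative RT-PCR (qRT-PCR) on RNA of whole larvae. Those measurements were not analysed here. Since whole tubes were used, fewer cells of a type and less RNA per cell cannot be told apart either.

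Each value is the log2 of the *hand173* signal over the w1118 signal, so that a negative value stands for a lower transcript level in the mutant. The arrays differed in coverage and in level. They held 1372, 2650 and 6459 values with medians of 0.97, 0.38 and -0.56, respectively. Across the genes that a pair of arrays shared, Pearson's r reached 0.77 for arrays 2 and 3 with 1982 genes. It was 0.14 for arrays 1 and 3 with 937 genes and 0.091 for arrays 1 and 2 with 530 genes, so that array 1 stood apart. Values are therefore given as deposited and, where stated, centred, that is after subtraction of the median of the array. A gene was called lower with a log2 ratio under -0.58, which is a ratio of 0.67, and called higher with a log2 ratio over 0.41, in each case on at least 2 arrays. These are the limits of the study's methods. Transcript levels and the signal over background remain unknown, because ratios and no spot intensities entered the comparison. Neither the genome build behind the spots nor the spotted sequences are named in the sources used here, and no coordinates are given.

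Among the 35 measured subunits, 3 were called lower and none was called higher in *hand173* hearts. The 3 genes were the ATP synthase subunits ATPsynG and ATPsyndelta and the cytochrome c oxidase subunit COX5B. Only 9 of the 35 subunits had values on at least 2 arrays and could be called at all, 3 of them with values on all 3 arrays. The called genes thus made up 33.3% of the 9, whereas 20.5% of all 2517 genes with at least 2 values were called lower and 9.69% were called higher. With each array centred, the same 3 subunits were called lower and none higher, beside 21.9% and 11.8% of all genes. With 9 genes, no statement on the list as a whole can be based on these shares.

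ATPsynG (CG6105) encodes subunit g, a small membrane subunit at the contact between paired ATP synthase complexes. Its log2 ratios were -0.41 on array 1, -2.08 on array 2 and -3.22 on array 3, which are ratios of 0.751, 0.237 and 0.107. It was the only subunit below 0 on all 3 arrays. The mean log2 ratio was -1.90 ± 1.41 (SD, n = 3 arrays), or a ratio of 0.267 as the geometric mean. Much of this spread came from the different levels of the arrays, since the centred values were -1.38, -2.46 and -2.66, with a mean of -2.17 ± 0.69. ATPsynG stood at the percentiles 6.12, 7.25 and 2.81 of the values of the 3 arrays and was low on each. The paper selected CG6105 for qRT-PCR on RNA of whole larvae. It is missing from the paper's list of genes that deviated there.

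ATPsyndelta (CG2968) encodes the delta subunit in the central stalk, which turns with the rotor. Its log2 ratios were 0.73 on array 1, -1.23 on array 2 and -2.47 on array 3. Array 1, with a ratio of 1.65, lay on the other side of equal levels from arrays 2 and 3, with ratios of 0.427 and 0.180. After centring, the log2 values were -0.24, -1.60 and -1.92, all below the medians of their arrays, and array 1 was close to its median. The mean was -0.99 ± 1.61 as deposited and -1.25 ± 0.89 centred (SD, n = 3 arrays).

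COX5B (CG11015) encodes subunit 5B, a nuclear-encoded subunit of cytochrome c oxidase that faces the mitochondrial matrix. It had log2 ratios of -0.85 on array 2 and -1.82 on array 3 and no value on array 1. The ratios were 0.553 and 0.282. Centring brought both values together at -1.23 and -1.27, with a mean of -1.25 ± 0.03 (SD, n = 2 arrays). Both arrays thus placed COX5B at nearly the same distance below the typical gene.

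As deposited, the call of all 3 genes rested on arrays 2 and 3. Since the rule needs 2 arrays, none of the 9 subunits could then be called lower without array 2 or without array 3. Without array 1 all 3 still were, which follows from the rule in the same way and is no measure of robustness. On centred arrays, ATPsynG lay under the limit on each of the 3 arrays, so that its call did not need a particular one, whereas ATPsyndelta and COX5B still passed on arrays 2 and 3 only. For comparison, limma was fitted to all 2517 genes with the arrays taken as independent, which covers the spread between arrays and not that between animals. On centred arrays ATPsynG had a Benjamini-Hochberg adjusted p of 0.0390, COX5B of 0.116 and ATPsyndelta of 0.153 in limma. Of the 9 subunits, 1, ATPsynG, was thus under an adjusted p of 0.05, beside 5.88% of all genes in the lower direction. As deposited, no subunit was, beside 5.40% of all genes, and the limma adjusted p was 0.0598 for ATPsynG, 0.553 for COX5B and 0.661 for ATPsyndelta.

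**Figure D1:**
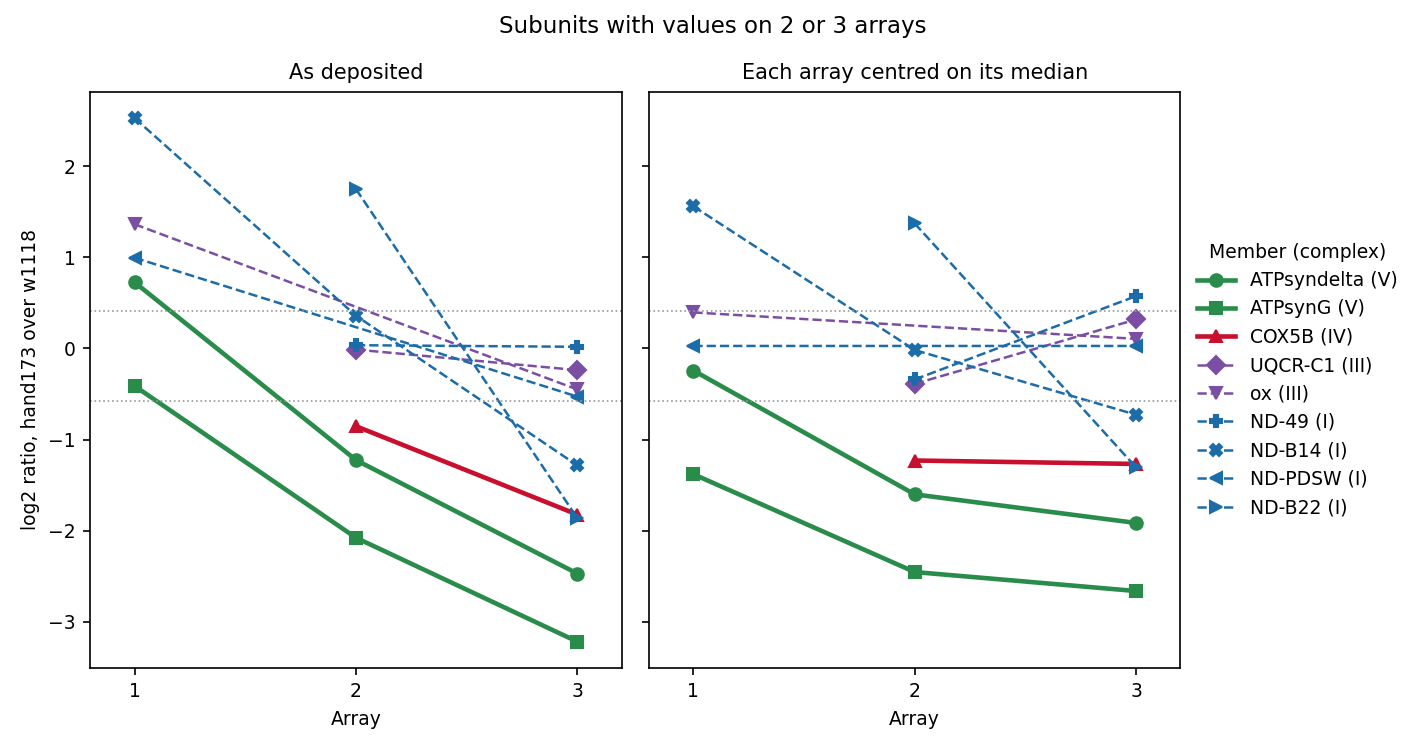
Log2 ratio of *hand173* over w1118 (vertical axis) on arrays 1 to 3 (horizontal axis) for the 9 subunits with at least 2 values, as deposited on the left and centred on the right. Thick solid lines mark the 3 genes called lower, thin dashed lines the other 6, and dotted lines the limits of 0.41 and -0.58. A line from array 1 to array 3 without a marker between them belongs to a gene with no value on array 2. After centring, ATPsynG, ATPsyndelta and COX5B lie below the lower limit on arrays 2 and 3, while the others cross or stay near 0.

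The remaining 6 subunits with repeated values passed neither limit on 2 arrays. UQCR-C1 (CG3731), core protein 1 of complex III, had log2 ratios of -0.01 on array 2 and -0.24 on array 3, which are ratios of 0.992 and 0.848. ND-49 (CG1970), the 49 kDa core subunit of complex I next to the ubiquinone site, had 0.04 and 0.02 on the same arrays, or ratios of 1.03 and 1.01. Both were close to equal levels in the genotypes as deposited. After centring, both lay below the median on array 2, at -0.39 and -0.34, and above it on array 3, at 0.32 and 0.58.

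ND-PDSW (CG8844), an accessory subunit in the membrane arm of complex I, had log2 ratios of 1.00 on array 1 and -0.53 on array 3. The centred values were 0.03 on each of these arrays, so that the gene followed the level of the arrays. The product of *ox* (CG8764) is a small accessory subunit of complex III, and its log2 ratios were 1.37 on array 1 and -0.45 on array 3, or 0.40 and 0.11 after centring.

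The values of ND-B14 and ND-B22, both accessory subunits of complex I, went in opposite directions on different arrays. ND-B14 (CG7712) had log2 ratios of 2.53 on array 1, 0.36 on array 2 and -1.28 on array 3. Centred, these were 1.56, -0.02 and -0.73, with a mean of 0.27 ± 1.17 (SD, n = 3 arrays), a mean well within the spread between its arrays. ND-B22 (CG9306) had 1.75 on array 2 and -1.86 on array 3, a ratio of 3.36 beside one of 0.275. Centring left it at 1.37 and -1.31. It lay at the percentile 92.1 of array 2 and 13.2 of array 3, and its mean carries no direction.

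Of the 7 subunits with values on arrays 2 and 3, 4 lay below the median on both arrays, none above it on both, and 3 on opposite sides. Over all 1982 such genes, 770 lay below on both, 720 above on both and 490 on opposite sides, which is 24.7%. Across the 7 subunits Pearson's r between these arrays was 0.51 and Spearman's rho 0.54. The points share the same RNA pools, and with 7 of them the coefficients are only a description. In the same way, the median SD of the centred values between arrays was 0.65 for the 9 repeated subunits, beside 0.40 for all genes.

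**Figure D2:**
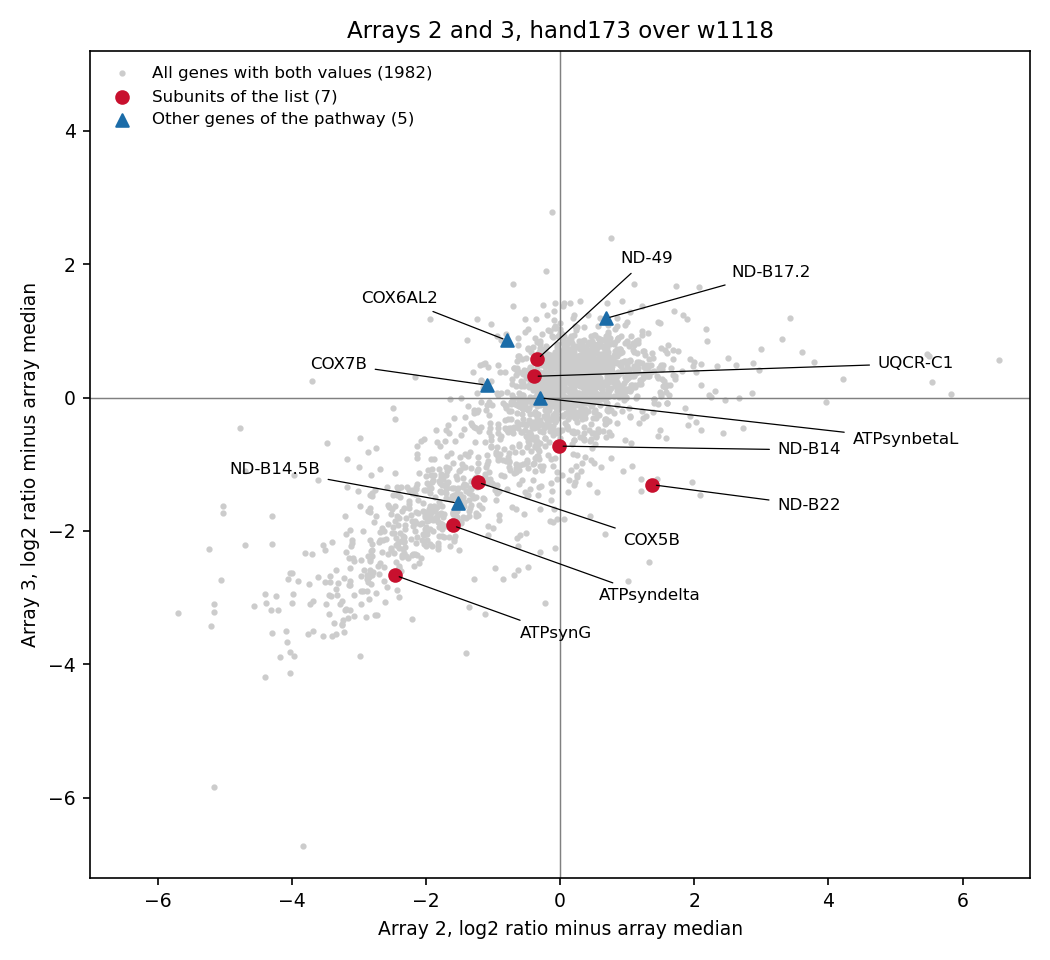
Centred log2 ratio on array 2 (horizontal axis) against array 3 (vertical axis), with 0 at the median of each array. Grey points are all 1982 genes with both values, red circles the 7 subunits and blue triangles 5 further genes of the pathway. ATPsynG, ATPsyndelta and COX5B lie along the grey diagonal at the lower left, together with the complex I gene ND-B14.5B, and ND-B22 lies off it at the lower right.

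The other 26 measured subunits had 1 value each, most of them on array 3. A single value cannot be repeated within these data, and no gene of this kind could be called. The values are given by complex, with the highest and the lowest of each.

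In complex V, the genes of the catalytic head were measured on different arrays. The gene of the alpha subunit, *blw* (CG3612), had a log2 ratio of 1.59 on array 2, whereas ATPsynbeta (CG11154), which carries the catalytic sites, had -1.43 on array 3. Measured on arrays of different level, they lay at the percentiles 90.4 and 21.0 of their arrays. ATPsynE (CG3321), subunit e, which like subunit g sits at the contact of paired complexes, had the highest value of complex V with 3.63 on array 2, a ratio of 12.4. Subunits e and g thus lay near opposite ends of array 2, at the percentiles 98.8 and 7.25. The peripheral stalk holds the head in place, and on array 3 its subunits ATPsynO (CG4307), ATPsynB (CG8189) and ATPsynCF6 (CG4412) had log2 ratios of -0.92, -0.21 and 0.50. Centred, these were -0.36, 0.34 and 1.06 and lay on both sides of the median. ATPsynC (CG1746), the ring subunit that carries protons through the membrane, had -0.41 and ATPsynF (CG4692) -0.19 on array 3, both above the median of that array. The lowest single value of complex V was that of ATPsynbeta.

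In complex IV, 3 subunits had a single value. *cype* (CG14028), which encodes subunit 6C, had the highest value of all subunits on array 3 with a log2 ratio of 3.21, a ratio of 9.23 at the percentile 99.9 of that array. COX7C (CG2249) had the lowest value of the complex on the same array with -1.85, close to the -1.82 of COX5B. COX7A (CG9603) had 0.93 on array 2, or 0.56 centred. On array 3 the 3 measured genes of complex IV thus comprised 2 far below and 1 far above the median.

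Complex III was the only complex of which all listed subunits were measured, and all 7 had a value on array 3. The lowest was that of RFeSP (CG7361), the Rieske iron-sulfur protein that takes electrons from ubiquinol, with a log2 ratio of -1.68. It was followed by core protein 2, UQCR-C2 (CG4169), with -1.15, and by cytochrome c1, Cyt-c1 (CG4769), with -0.67. The small subunits UQCR-Q (CG7580) and UQCR-14 (CG3560) had -0.58 and -0.54, at the median of the array, and UQCR-14 was the highest of the genes with a single value. Centred, the 7 genes ran from -1.13 to 0.32 and formed the narrowest range of the complexes with at least 3 values on array 3. The gene of the soluble electron carrier itself, Cyt-c-p (CG17903), had -1.42 on array 3, or -0.86 centred.

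Complex I had the lowest single value. ND-42 (CG6343), an accessory subunit of the membrane arm, had a log2 ratio of -4.28 on array 3, a ratio of 0.0513 at the percentile 0.542. ND-51 (CG9140), the core subunit that binds FMN and takes electrons from NADH, followed with -2.82, a ratio of 0.142. At the other end, ND-23 (CG3944), a core subunit with iron-sulfur clusters, had the highest value of the complex with 3.16 on array 2, a ratio of 8.92. On array 3, the other genes of complex I with a single value were ND-B18 (CG5548) with -0.67, ND-SGDH (CG9762) with -0.30 and ND-13A (CG8680) with 0.51. ND-B16.6 (CG3446) had 0.60 on array 2, and ND-15 (CG11455) and ND-ASHI (CG3192) had 0.73 and 0.68 on array 1, slightly below the median there. The extreme values of complex I therefore came from genes seen on 1 array only.

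**Figure D3:**
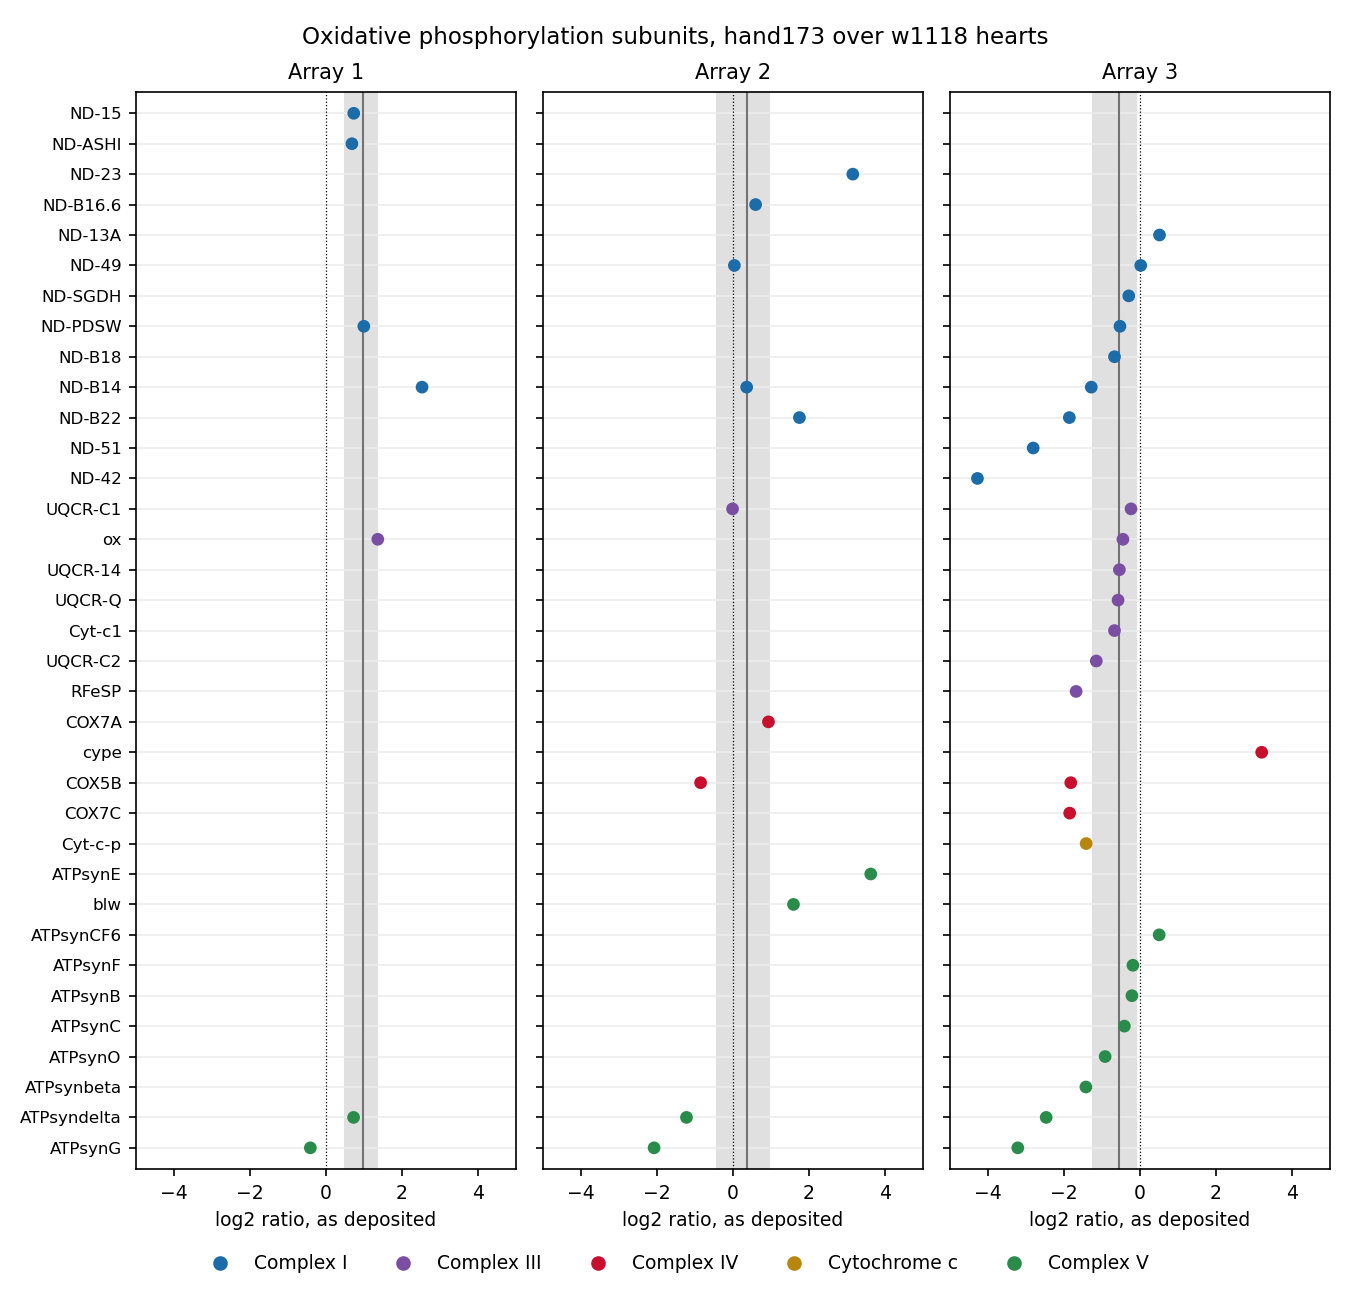
Log2 ratio as deposited (horizontal axis) of each of the 35 measured subunits (rows) on arrays 1, 2 and 3, coloured by complex. The grey line and band mark the median and the quartiles of all genes on that array, and the dotted line marks 0. An empty position is a missing value. *cype* and ND-42 stand at the ends of array 3, ATPsynE and ND-23 at the upper end of array 2, and ATPsynG is left of the band on every array.

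The complexes were compared on each array, since their genes were measured on different arrays. On array 3, the median log2 ratio was -0.67 for complex I (9 genes), -0.58 for complex III (7 genes), -1.82 for complex IV (3 genes) and -0.67 for complex V (8 genes), beside -0.56 for all genes. Centred, complexes I, III and V thus had medians of -0.12, -0.02 and -0.11, while their genes ran from -3.73 to 1.07, from -1.13 to 0.32 and from -2.66 to 1.06. These 3 medians differed by far less than the genes within each complex. The median of complex IV, -1.27 centred, rested on COX5B and COX7C, with *cype* at 3.76.

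On array 2, the medians were 0.60 for complex I (5 genes), 0.04 for complex IV (2 genes) and 0.18 for complex V (4 genes), beside 0.38 for all genes, and complex III had 1 value. The centred medians were 0.22, -0.34 and -0.19. On array 1, complex I had a median of 0.86 (4 genes) and complex V one of 0.16 (2 genes), beside 0.97 for all genes. Complex V was the lower of these 2 on arrays 1 and 2, but on array 3 their medians were equal to the second decimal. Its genes on array 1 were ATPsynG and ATPsyndelta only, which were also its lowest genes on array 2. Within complex I, on array 3, the core subunits had a median of -1.40 (2 genes) and the accessory subunits one of -0.67 (7 genes). On array 2 the order was reversed, with 1.60 for the core (2 genes) and 0.60 for the accessory subunits (3 genes). Members of a complex are not replicates, and with 1 pair of pools no test of a difference between complexes was possible.

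Counted on array 3 alone, 16 of the 28 subunits with a value, or 57.1%, lay under the ratio of 0.67, beside 49.0% of all genes, and 3 lay over the upper limit, or 10.7% beside 6.50%. After centring, 12 of 28, or 42.9%, lay under the limit beside 28.1% of all genes, and 4, or 14.3%, over it beside 27.3%. On array 2, 3 of 12 were under the limit, or 25.0% beside 22.8%, and 6 over it, or 50.0% beside 48.3%. Centred, 3 of 12 were under the limit beside 29.1% and 5, or 41.7%, over it beside 31.3%. On array 1 none of 7 was under the limit beside 4.23% and 6, or 85.7%, over it beside 77.6%, and centred 1 lay on either side, beside 21.9% under and 22.7% over. As deposited, both the low and the high share of the subunits exceeded those of all genes on arrays 2 and 3. After centring, only the low share did on array 3 and only the high share on array 2. The arrays hold different subunits and array 2 only 12, so that no direction is read from these counts.

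**Figure D4:**
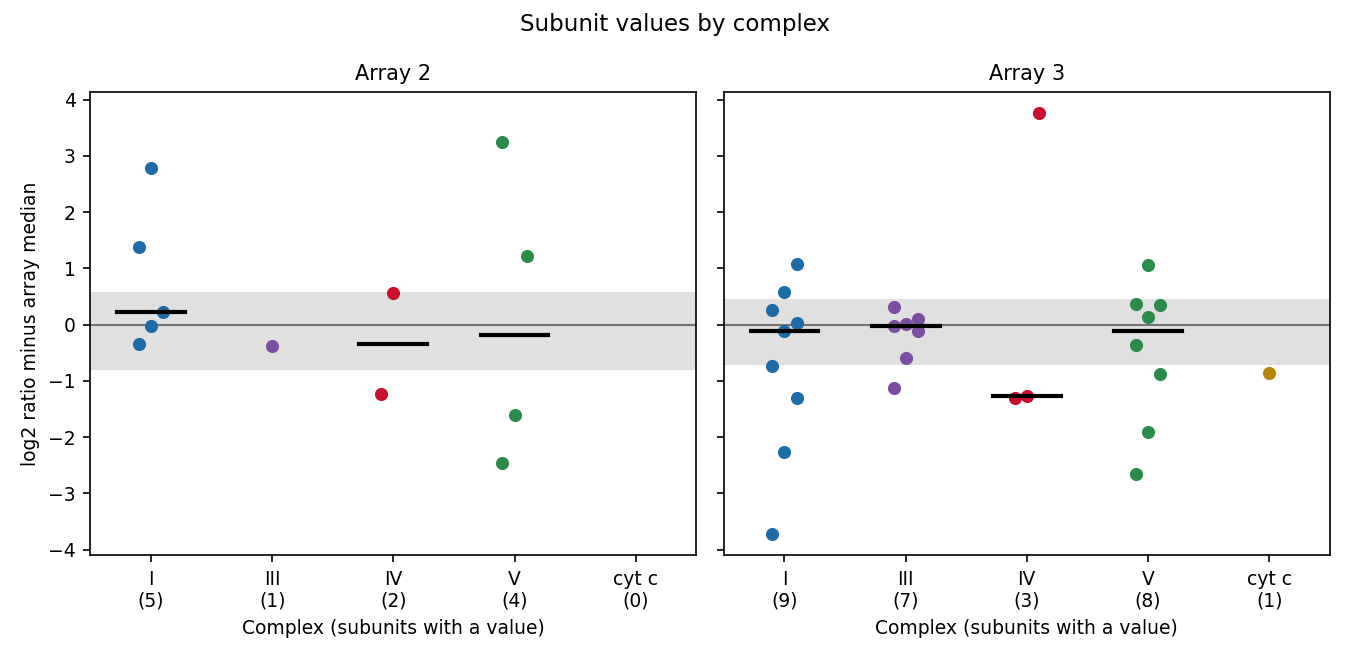
Centred log2 ratio (vertical axis, 0 at the median of the array) of each subunit by complex (horizontal axis, number of genes with a value in parentheses) on arrays 2 and 3. Black bars mark medians of at least 2 genes, and the grey band the quartiles of all genes on the array. The medians of complexes I, III and V on array 3 lie within 0.12 below 0, whereas that of complex IV lies at -1.27 with *cype* far above it.

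Values on array 2 differed between genes with and without a value on array 3. The 5 subunits with a value on array 2 and none on array 3, *blw*, ATPsynE, COX7A, ND-23 and ND-B16.6, all lay above the median of array 2, at centred log2 values from 0.22 to 3.25. Of the 7 with values on both arrays, 1 did, namely ND-B22. Over all genes, 61.1% of the 668 genes without a value on array 3 lay above the median of array 2, against 46.2% of the 1982 with one. The reason for empty cells is not given in the sources used here, and its part in these values was not tested.

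The table held no value for 21 listed subunits, which were not analysed here. They include all 4 subunits of complex II (SdhA, SdhB, SdhC and SdhD), which also belongs to the tricarboxylic acid cycle. In complex V these were ATPsyngamma and ATPsynD, and in complex IV COX4, COX5A, *levy* (subunit 6A), COX6B and COX8. In complex I they were ND-75, ND-39, ND-30, ND-24, ND-20, ND-18, ND-13B, ND-B17, ND-ACP and ND-19, among them 4 core subunits.

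Beside the list, 17 further genes with a symbol of the pathway had values, of which 8 had at least 2 and 1 was called in each direction. Among all genes with at least 2 values, 20.5% were called lower and 9.69% higher. ND-B14.5B (CG12400), an accessory subunit of complex I, was called lower with log2 ratios of -1.14 on array 2 and -2.14 on array 3. Its centred values of -1.52 and -1.58 lay close to each other, as did those of COX5B. The paper lists CG12400 as lower by qRT-PCR on RNA of whole larvae. ND-B17.2 (CG3214), likewise an accessory subunit of complex I, was called higher with 1.06 and 0.63, or 0.68 and 1.19 centred. The only complex I genes called in either direction were thus these 2, and they went opposite ways. Both lacked a value on array 1. The median of the means over the 17 genes was 0.03 centred, beside 0.01 for all genes and 0.01 for the 35 subunits.

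Several of the 17 genes are paralogs of listed subunits, and some of these are expressed mainly in testis. Whether the spots tell such copies apart is not given in the sources used here. The values of the copies differed from those of the subunits. ATPsynGL (CG7211) had log2 ratios of 1.10 on array 1 and -0.00 on array 3, where ATPsynG had -0.41 and -3.22. ATPsynbetaL (CG5389) had 0.08 on array 2 and -0.56 on array 3, where ATPsynbeta had -1.43. On array 3, the copies of ND-51, ND-51L1 (CG11423) and ND-51L2 (CG8102), had -1.47 and -0.11, beside -2.82 for ND-51. COX6CL (CG31644) had -0.59 on that array, where *cype* had 3.21. The low or high ratio of a subunit was in none of these pairs matched in size by its copy.

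Regulators of nuclear genes for mitochondria and partners of the respiratory chain were covered only in part, with values for 7 of 16 listed genes. Only 3 of these had at least 2 values, and none was called as deposited, beside 20.5% of all genes called lower and 9.69% higher. On array 3, *srl* (CG9809), the fly homolog of the coactivator PGC-1, had a log2 ratio of -1.94, and PolG1 (CG8987), the polymerase of mitochondrial DNA, had -2.42. Centred, these single values were -1.39 and -1.87. TFAM (CG4217), which packages mitochondrial DNA, had 1.34 on array 2. The transcription factor gene *ewg* (CG3114), a homolog of NRF-1, had 0.35 on array 1 and -5.60 on array 3, and it was called lower on centred arrays. The gene mtTFB2 (CG3910) had 0.40 on array 2 and -0.46 on array 3, or 0.02 and 0.09 centred. Mpcp1 (CG9090) had -0.09 and -0.37 on these arrays, or -0.46 and 0.19 centred. A single value of 0.60 on array 2, or 0.22 centred, was held by mtSSB (CG4337).

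Markers of cell types in or near the heart tube were compared in the same way. The *hand* gene itself (CG18144) had a log2 ratio of -0.16 on array 3 only, above the median of that array, and since the sources used here do not say which part of it the allele lacks, it gives no check of the labels. Of 10 heart transcription factors, 6 had a value, none on more than 1 array, and *tin* had none. The 5 on array 3 ran from -1.28 to -0.16, and *tup* had 0.080 on array 2. Of 10 muscle genes, 7 had a value, from -2.16 to 0.75 on array 3 and 2.15 for Mhc on array 2. Centred, 4 of the 6 on array 3, or 66.7%, lay over the upper limit, beside 27.3% of all genes. Under the lower limit lay 1, or 16.7%, beside 28.1% of all genes. Ratios carry no transcript level, so that the tissue label could not be checked further.

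Genes of tissues that touch the heart went in both directions, and some were low on the same arrays as the called subunits. By the rule, 20.5% of all genes with at least 2 values were called lower and 9.69% higher. Of 6 fat body genes, 5 had a value. Lsp1alpha (CG2559), a larval serum protein made by the fat body, had 1.36, -3.30 and -3.61 on arrays 1 to 3 and was called lower, whereas Fbp1 (CG17285) had 1.10 on array 1 and 0.91 on array 2 and was called higher as deposited but not on centred arrays. Lsp1gamma, Lsp1beta and Lsp2 had -0.20, -0.53 and 0.49 on array 3. Centred, these were 0.35, 0.02 and 1.04, all above the median of that array, unlike Lsp1alpha. Lsp1gamma also had 1.45 on array 1, or 0.49 centred. Of 4 hemocyte genes, 2 had a value, and Pxn (CG12002), a matrix peroxidase, had 0.30, -1.69 and -2.96 and was called lower, while NimC1 had -0.78 on array 3. Of 4 nephrocyte genes, *sns* had 1.44 on array 2 and Cubn 0.24 on array 3. The labelling protocol given with the samples speaks of RNA from fat bodies, while the methods speak of dissected hearts. The part of other tissues in the values of the subunits was not tested.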

How the data were processed

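Larval heart RNA of *hand173* and w1118 animals was compared on 3 spotted 2-colour arrays. Scans were acquired and normalized by the authors in GenePix and Acuity, who deposited 1 log2 ratio of *hand173* over w1118 per gene and array. The normalization method, spot filter and combination of spots are not given in the sources used here. Scanner files were not analysed here, so that background correction and dim-spot filters could not be varied. Precision is limited by the small number of arrays.

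The deposited log2 values were used without filling in empty cells. All genes were scored by the rule of the study's methods and the subunits read out. The subunits and lists were chosen with earlier results of these data known. Named genes are all subunits with a value, those without one, and genes of the other lists called by the rule, with further genes of these lists named after their values were seen. All 61 names of the hand-written lists matched RefSeq (Release 6 plus ISO1 MT). Fat body, heart, muscle, nephrocyte and hemocyte markers, tricarboxylic acid cycle genes, regulators and ribosomal proteins served as comparison. Alternatives were centring, scaling, other thresholds, leaving out each array, and limma. The steps were run on simulated data in which the lowered genes were set far beyond the lower limit of the rule. This checks that the steps work and not how often they err on these arrays. Python 3.11.15, numpy 2.4.6, pandas 2.3.3, matplotlib 3.10.9, R 4.3.3 and limma 3.58.1 were used.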

Additional observations from a re-analysis of the deposited data

How the results depend on the processing

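The 3 subunits called lower were called so again with the mean over the arrays, centring, centring with scaling, and a symmetric threshold, and 2 of them with a 2-fold threshold or with genes of 3 values only. The count was 0 when all 3 arrays had to pass and 0 in limma as deposited, where 1 subunit had an unadjusted p under 0.05 and 0 were higher. It was 1 in limma on centred arrays. Leaving out 1 array in turn gave 0 to 3. No subunit was called higher except with the mean over the arrays, which called 2 (ND-B14 and *ox*). Shares of all genes were counted only for the main rule, the centred arrays and limma. For the other settings it is therefore open whether the counts differ from those of all genes. The median over the subunits of the mean log2 ratio was -0.21 and moved to -0.99 for the 3 genes with 3 values. Leaving out 1 array gave -0.56 to 0.83. Both the levels of the arrays and the genes that have a value differ between these settings, and the cause was not tested. The median of complex V was -0.31 and moved to 0.24 with centring, 0.24 with centring and scaling, and -1.45 for the 2 genes with repeated values, which are those with 3 values. Leaving out 1 array gave -0.64 to 0.67 for complex V, -0.58 to 0.68 for complex III, -1.82 to 0.040 for complex IV and -0.30 to 0.86 for complex I. For genes with 1 value, leaving out another array cannot change the value and shows nothing. With centring, scaling or 1 array left out, the mean ran from -2.65 to -1.25 for ATPsynG, from -1.85 to -0.25 for ATPsyndelta and from -1.82 to -0.85 for COX5B. No median of complex II and none for complexes III and IV with genes of 3 values could be given, since no such gene had a value. No paired analysis was possible because the arrays form 1 group, with no other group to pair by number, and each ratio already sets both genotypes against each other within an array.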

Other observations

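Other gene groups of mitochondria and of protein synthesis were scored by the same rule. Of 11 genes of the tricarboxylic acid cycle, 5 had a value and 2 had values on 2 arrays. Of these 2, 1 was called lower and 1 higher, beside 20.5% and 9.69% of all genes. With 2 genes, no share is read from this. Ogdh (CG11661), a subunit of the 2-oxoglutarate dehydrogenase complex, was called lower with log2 ratios of -0.90 on array 2 and -3.27 on array 3. The paper lists CG11661 as lower by qRT-PCR on RNA of whole larvae. Idh3b (CG6439), a subunit of NAD-dependent isocitrate dehydrogenase, was called higher with 1.59 and 0.45. Idh3g (CG5028) had 0.67 on array 3, and Mdh2 (CG7998), malate dehydrogenase, had -1.66 on array 2.

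Among 38 mitochondrial ribosomal proteins with a value, 8 had at least 2 and 1 was called lower, namely mRpL27, with -1.58 on array 2 and -2.39 on array 3. Among 62 cytosolic ribosomal proteins, 30 had at least 2 values, of which 10 were called lower and 2 higher, beside 20.5% and 9.69% of all genes. RpS7 had log2 ratios of 1.05, -2.24 and -3.62 on arrays 1 to 3, and RpS12 had 0.45, -1.79 and -2.90. As deposited, both were thus above 0 on array 1 and below it on arrays 2 and 3, as ATPsyndelta was. Centred, their values on array 1 were 0.08 and -0.52, beside -0.24 for ATPsyndelta, so that only RpS7 lay above the median there. The genes called higher were RpL7-like, with 1.13 and 1.84 on arrays 2 and 3, and RpS21, with 1.11, 0.63 and -1.42, which was not called on centred arrays.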
